A study of Mus musculus with 8 samples.

Results

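The zona pellucida genes are *Zp1*, *Zp2* and *Zp3*, taken by symbol from the table of gene counts, so that 3 of the 45583 listed symbols are described here. The table comes from whole ovaries of 3-week-old female C57/Bl6 mice, with 4 libraries labelled WT (animals 1118, 1119, 1120 and 1121) and 4 labelled GOAT KO (animals 1139, 1140, 1141 and 1146), each from a single ovary of 1 animal. GOAT, encoded by *Mboat4*, is the enzyme that attaches the acyl group to ghrelin, and WT and GOAT KO mice were bred as littermates from heterozygous parents. The comparison asks whether loss of GOAT throughout life goes with a changed ovarian transcriptome before puberty.

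The zona pellucida is the glycoprotein coat that a growing oocyte secretes around itself and that a sperm has to bind and cross. In the mouse it is built from the products of these genes. ZP2 and ZP3 make up the filaments, ZP1 cross-links them, and the N-terminal part of ZP2 carries the site that sperm recognise. The genes are transcribed in oocytes from the start of follicle growth, so in a whole ovary their RNA comes from growing oocytes, and fewer oocytes cannot be told apart from less zona RNA per oocyte in these bulk samples.

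*Zp1* (ENSMUSG00000024734.8) lies on the minus strand at chr19:10914287-10920632 of GRCm38, *Zp2* (ENSMUSG00000030911.7) on the minus strand at chr7:120126772-120145291 and *Zp3* (ENSMUSG00000004948.12) on the plus strand at chr5:135980099-135988624. Their principal transcripts, the ones numbered 201 in the GENCODE annotation, have 12, 18 and 8 exons and measure 1963, 2221 and 1323 bases.

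Before the results, some features of the libraries bear on them. *Mboat4* had 1, 1, 1 and 3 counts in the libraries labelled WT and 5, 7, 7 and 8 counts in those labelled GOAT KO, so the targeted gene was higher in every library that should lack it, at so few counts that they do not settle the genotype of a library. The groups are given by their labels. WT 1118 stood apart in its spliced reads. Over 11759 annotated introns with a mean of at least 50 reads and reads in every library, the SD of the log2 deviation of WT 1118 from the median of the other libraries was 0.637, against 0.231 to 0.329 for the remaining 7. The comparisons of the zona genes are therefore given with and without it. The 8 libraries held 16147216 to 19481798 counts on genes. The summed level of 8 oocyte markers ranged from 836 to 976 counts per 1000000 (CPM) in the libraries labelled WT and from 878 to 991 CPM in those labelled GOAT KO, which overlap. All 4 adipose markers were higher under the GOAT KO label by the call rule given below, which 1.67% of all genes tested met, their sum being 8.36 to 18.7 CPM under the WT label and 16.3 to 328 CPM under the GOAT KO label, highest in GOAT KO 1139. With GOAT KO 1139 left out, *Adipoq*, *Cfd* and *Retn* lost their calls (log2 fold changes 0.26, 0.72 and 0.69). *Plin1*, with a log2 fold change of 0.96 in all libraries, missed the p for a call without GOAT KO 1139 (0.54), WT 1118 (0.78) or WT 1119 (0.86) and was called without GOAT KO 1139 and WT 1120 together (0.78). The log2 fold changes of *Zp1*, *Zp2* and *Zp3* without GOAT KO 1139 were 0.07, 0.15 and 0.09, beside 0.05, 0.14 and 0.09 with it.

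All 3 zona genes were among the well expressed genes of the juvenile ovary, and none passed the test between genotypes. Of 16601 genes that passed the filter on low counts, *Zp2* ranked 561, *Zp3* 1122 and *Zp1* 2674 by mean CPM, a rank not corrected for length. Between genes, levels are compared per kilobase of the principal transcript. In every library *Zp3* stood highest, *Zp2* next and *Zp1* lowest. *Zp3* had 131 ± 10.9 CPM per kb (mean ± SD, n = 4) under the WT label and 140 ± 10.6 (n = 4) under the GOAT KO label, *Zp2* had 113 ± 8.06 and 124 ± 8.37, and *Zp1* had 51.2 ± 8.82 and 53.1 ± 3.95. Within a library *Zp3* exceeded *Zp2* by 1.09 to 1.21 times, and the ranges of both genes across libraries overlapped, whereas *Zp2* exceeded *Zp1* by 1.95 to 2.46 times and their ranges did not meet. The order of *Zp3* and *Zp2* rests on the transcript length used, since *Zp2* had more counts than *Zp3* in every library.

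**Figure D1:**
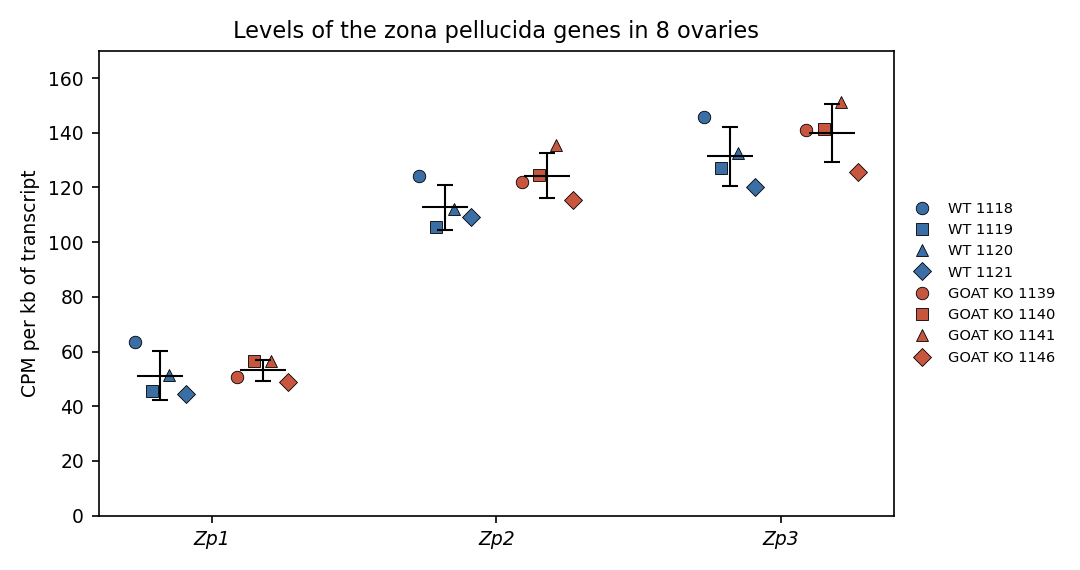
Level of each zona gene in CPM per kb of its principal transcript (vertical axis), 1 point per library, blue for the WT label and red for the GOAT KO label; horizontal bars are group means and whiskers 1 SD (n = 4). The groups overlap for each gene, and the circle of WT 1118 is the highest WT value each time, at 63.7 CPM per kb for Zp1, 124 for Zp2 and 146 for Zp3.

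*Zp1*, which encodes the cross-linking protein, had 125, 89.5, 101 and 87.1 CPM in WT 1118, 1119, 1120 and 1121 and 99.7, 111, 111 and 95.6 CPM in GOAT KO 1139, 1140, 1141 and 1146. WT 1118 was above all other libraries, and the GOAT KO values lay inside the WT range. The log2 fold change of GOAT KO over WT was 0.05 (SE 0.11, 95% interval -0.19 to 0.29, edgeR quasi-likelihood unadjusted p = 0.639, adjusted p = 0.986).

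*Zp2*, which encodes the protein that sperm bind, had 276, 235, 249 and 242 CPM in the 4 WT libraries and 271, 277, 301 and 256 CPM in the 4 GOAT KO libraries, in the same order of animals. Of the GOAT KO libraries, 2 were above the highest WT library, which was again WT 1118, and all 4 were above the other WT libraries. Its log2 fold change was 0.14 (SE 0.07, 95% interval -0.01 to 0.30, edgeR unadjusted p = 0.0648, adjusted p = 0.983), the largest of the zona genes.

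*Zp3*, the partner of ZP2 in the filaments, had 193, 168, 175 and 159 CPM in the WT libraries and 186, 187, 200.2 and 166 CPM in the GOAT KO libraries. GOAT KO 1141 alone exceeded WT 1118, and GOAT KO 1146 lay below 3 of the WT libraries. Its log2 fold change was 0.09 (SE 0.08, 95% interval -0.08 to 0.26, edgeR unadjusted p = 0.255, adjusted p = 0.983).

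Thus 0 of 3 zona genes met the rule for a call, which needs both an edgeR p below 0.05 before adjustment and a log2 fold change beyond 0.5 in size, where 1.67% of all genes tested did, and 0 of 3 had an adjusted p below 0.05, where 0.0241% did. In none of the 3 did the groups separate fully, as they did in 2.92% of all genes tested. The upper ends of the intervals lie under a log2 fold change of 0.5, and so do the lower ends in size. An exact two-sided permutation test of log2 CPM over the 8 libraries, which cannot go below 0.0286, gave p = 0.714 for *Zp1*, p = 0.0857 for *Zp2* and p = 0.314 for *Zp3*.

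The differences moved with single libraries of both groups. Without WT 1118 the log2 fold change was 0.17 for *Zp1* (edgeR unadjusted p = 0.0483), 0.19 for *Zp2* (edgeR unadjusted p = 0.0131) and 0.14 for *Zp3* (edgeR unadjusted p = 0.0682). *Zp1* and *Zp2* then fell under 0.05 without adjustment, and neither reached a log2 fold change of 0.5. Without GOAT KO 1146, the GOAT KO library lowest in each gene, *Zp2* had a log2 fold change of 0.18 (edgeR unadjusted p = 0.0391) and *Zp3* 0.14. Without GOAT KO 1141, the GOAT KO library highest in each gene, the log2 fold changes fell to 0.017, 0.095 and 0.047, and without WT 1121 that of *Zp3* fell to 0.047. Leaving out WT 1119 or WT 1121 turned the log2 fold change of *Zp1* to -0.0041 and -0.014. Without WT 1120 and GOAT KO 1139, where 2.39% of 16641 genes were called, the log2 fold changes were 0.07, 0.15 and 0.09, and none of the 3 was called.

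Ratios between the zona genes within a library do not depend on library size or on the share of oocytes in the tissue. The ratio of *Zp2* to *Zp3* counts was 1.43, 1.39, 1.42 and 1.52 in the WT libraries and 1.45, 1.48, 1.503 and 1.54 in the GOAT KO libraries. On the log2 scale this ratio had an SD of 0.05 over the 8 libraries, below the SD of 0.12 that *Zp2* and *Zp3* each had alone. *Zp2* and *Zp3* thus varied together from ovary to ovary. The log2 ratios of *Zp1* to *Zp3* and of *Zp1* to *Zp2* had SDs of 0.093 and 0.109. These too were below the SDs of the genes alone, 0.174 for *Zp1*, 0.119 for *Zp2* and 0.117 for *Zp3*. The ratio of *Zp1* to *Zp3* counts was 0.648, 0.531, 0.575 and 0.548 in the WT libraries and 0.535, 0.591, 0.554 and 0.575 in the GOAT KO libraries. That of *Zp1* to *Zp2* was 0.453, 0.381, 0.405 and 0.360 in the WT libraries and 0.368, 0.399, 0.369 and 0.373 in the GOAT KO libraries. WT 1118 held the highest share of *Zp1* by both ratios, and the groups overlapped for each. The log2 ratio differed between GOAT KO and WT by 0.05 for *Zp2* to *Zp3* (exact permutation p = 0.171), by -0.03 for *Zp1* to *Zp3* (exact permutation p = 0.800) and by -0.08 for *Zp1* to *Zp2* (exact permutation p = 0.400). Without WT 1118 these differences were 0.05, 0.03 and -0.02 (exact permutation p = 0.286, 0.543 and 0.743), so that the ratio of *Zp1* to *Zp3* changed sign. Taken from reads across annotated introns in all 8 libraries, the differences were 0.17 for *Zp1* to *Zp3* and 0.14 for *Zp1* to *Zp2* (exact permutation p = 0.543 and 0.457), of opposite sign to the -0.03 and -0.08 from counts in the same libraries.

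Against other transcripts of growing oocytes no zona gene passed the test. The list used holds 34 symbols for 33 genes, since *H1foo* appears under both of its names, and all 33 genes passed the filter. It includes *Gdf9* and *Bmp15*, the growth factors that oocytes send to granulosa cells, and the subcortical maternal complex genes *Nlrp5*, *Ooep*, *Tle6* and *Khdc3*. The geometric mean of the list was 38.6, 35.1, 38.0 and 34.8 CPM in the WT libraries and 37.9, 40.1, 41.0 and 35.5 CPM in the GOAT KO libraries. Relative to it, the log2 ratio of *Zp2* was 2.77 ± 0.06 (SD, n = 4) under the WT label and 2.84 ± 0.04 under the GOAT KO label (difference 0.07, exact permutation p = 0.114). *Zp3* stood at 2.24 ± 0.06 and 2.26 ± 0.04 (difference 0.02, exact permutation p = 0.714). *Zp1* stood at 1.44 ± 0.17 and 1.43 ± 0.03 (difference -0.01, exact permutation p = 0.971), with WT 1118 at 1.70 and the other 7 libraries between 1.32 and 1.46. Without WT 1118 the differences were 0.09 for *Zp2* (exact permutation p = 0.0857), 0.04 for *Zp3* (exact permutation p = 0.229) and 0.07 for *Zp1* (exact permutation p = 0.0857), the last of which changed sign.

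**Figure D2:**
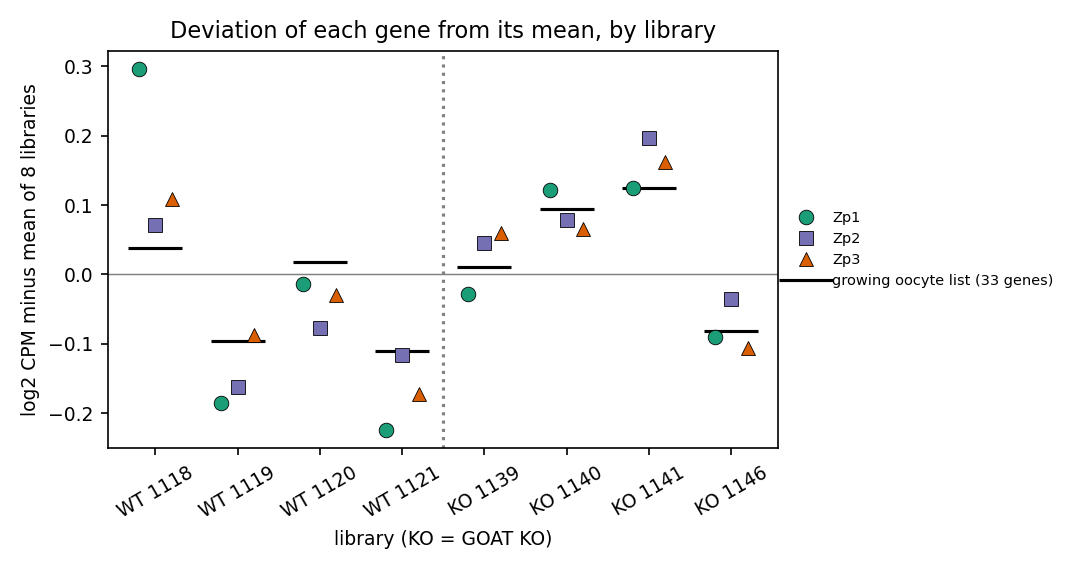
Log2 CPM of Zp1, Zp2 and Zp3 minus the mean of the 8 libraries (vertical axis) in each library, with the mean of the 33 growing oocyte genes as a black bar. The zona genes and the list lie on the same side of 0 in WT 1118, WT 1119, WT 1121, GOAT KO 1140, GOAT KO 1141 and GOAT KO 1146, and Zp1 in WT 1118 (125 CPM) lies farthest from its mean.

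Of the 33 growing oocyte genes, 24 had a log2 fold change above 0 and the median was 0.08, beside 49.9% of genes above 0 and a median of -0.00035 over all genes tested. The median was 0.033 without GOAT KO 1141 and 0.037 without WT 1121. At an unadjusted p under 0.05 there were 6 genes higher and 1 lower, beside 4.62% of all genes tested in either direction, and 1 of 33, *Khdc3*, was called, beside 1.67% of all genes tested. *Khdc3* had 1.36, 2.11, 2.69 and 2.18 CPM in the WT libraries and 3.11, 2.81, 2.97 and 3.37 CPM in the GOAT KO libraries, which do not overlap (log2 fold change 0.55, SE 0.20, edgeR unadjusted p = 0.0191, adjusted p = 0.983). Such separation held for 1 of 33 genes of the list, beside 2.92% of all genes tested. The values of *Khdc3* rest on 22 to 58 counts a library. Its call was lost without WT 1118 (log2 fold change 0.40) and without GOAT KO 1146 (log2 fold change 0.50). The next largest differences in size were those of *Oog1* (0.29), *Btg4*, a factor in the clearance of maternal mRNA (-0.24), and *Ooep* (0.21), and none of these was called.

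The genes most like each zona gene over the 8 libraries included several known from oocytes. For *Zp2* the 5 highest Pearson correlations of log2 CPM among 16600 genes were those of *Kdm1b*, a histone demethylase of growing oocytes (r = 0.98, Spearman rho = 0.98), *Padi6*, a component of the cytoplasmic lattices (r = 0.98, rho = 0.98), *Tdrd1* (r = 0.96, rho = 0.98), *Nlrp5* (r = 0.95, rho = 0.93) and the small GTPase gene *Rab3d* (r = 0.95, rho = 0.90). For *Zp3* they were *Myo5b*, a vesicle motor (r = 0.97, rho = 0.98), *Sphk2* (r = 0.95, rho = 0.98), *Tle6* (r = 0.95, rho = 0.95), *Acd* (r = 0.95, rho = 0.98) and *Sdr39u1* (r = 0.95, rho = 0.95). For *Zp1* they were *Pramef12* (r = 0.98, rho = 0.98), *Shroom4* (r = 0.95, rho = 0.93), *Cpa1* (r = 0.94, rho = 0.95), *Npm2*, the oocyte nucleoplasmin (r = 0.94, rho = 0.93), and *Gdf9* (r = 0.94, rho = 0.93). Among themselves, *Zp3* ranked 26 for *Zp2* (r = 0.90, rho = 0.86) and 70 for *Zp1* (r = 0.87, rho = 0.93), and *Zp2* ranked 260 for *Zp1* (r = 0.79, rho = 0.83). These values describe 8 libraries that share their depth scaling and their mixture of cells. The named genes were picked as the highest of 16600, so the size of r also reflects that choice.

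The transcription of all zona genes in oocytes depends on FIGLA, a basic helix-loop-helix factor that pairs with TCF3 and binds an E-box, the letters CANNTG, upstream of each gene. The RefSeq promoter table held 1 of 3 zona genes, *Zp3*. The 244 bases before the annotated start of *Zp3*, at chr5:135979855-135980098 of GRCm38 on the plus strand, are shown with every CANNTG in capitals, since it is the element that FIGLA binds.

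Zp3 upstream: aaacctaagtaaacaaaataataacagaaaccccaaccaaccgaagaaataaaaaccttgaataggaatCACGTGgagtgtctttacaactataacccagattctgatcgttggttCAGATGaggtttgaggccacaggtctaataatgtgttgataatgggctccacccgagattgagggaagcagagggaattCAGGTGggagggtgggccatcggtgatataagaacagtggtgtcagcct

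The stretch holds 3 matches, none overlapping another, which begin 175, 128 and 49 bases before the start. As a pattern CANNTG equals its own reverse complement, so 1 strand covers both. The match farthest upstream reads CACGTG. Over the 250 bases before the start of 32851 promoters in the same table, 66.2% held at least 1 match, 12.2% held 3 or more, and 6.02% held CACGTG. A match is a description of the letters only.

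Of the 8 regulators all passed the filter, and 2 of 8 were called, both higher under the GOAT KO label, beside 1.67% of all genes. This list, like the others, was chosen with earlier results of these data known, so its share of calls does not test enrichment. Their median log2 fold change was 0.23, and 6 of 8 were above 0. Without GOAT KO 1141 the median was 0.046. *Sohlh1*, a factor of primordial oocytes, had 1.36, 2.39, 2.09 and 2.67 CPM in the WT libraries and 1.97, 3.79, 6.19 and 3.60 CPM in the GOAT KO libraries. The groups overlapped through GOAT KO 1139, and GOAT KO 1141 was highest (log2 fold change 0.87, SE 0.32, edgeR unadjusted p = 0.0198, adjusted p = 0.983). The call of *Sohlh1* was lost without GOAT KO 1141 (log2 fold change 0.54, edgeR unadjusted p = 0.0877) and without WT 1118 (0.72, edgeR unadjusted p = 0.0582). *Tbpl2*, which encodes the TBP paralogue that replaces TBP in growing oocytes, had 1.18, 1.06, 1.59 and 1.74 CPM in the WT libraries and 2.15, 2.69, 2.25 and 1.86 CPM in the GOAT KO libraries. The groups did not overlap, as in 2.92% of all genes tested (log2 fold change 0.68, SE 0.21, edgeR unadjusted p = 0.00853, adjusted p = 0.983). *Tbpl2* was called in each of the fits that left out 1 library. Neither passed at an adjusted p under 0.05.

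*Figla* had 2.11, 2.17, 1.98 and 2.40 CPM in the WT libraries and 2.87, 3.36, 3.53 and 2.09 CPM in the GOAT KO libraries. GOAT KO 1146 lay inside the WT range and the other 3 lay above it (log2 fold change 0.46, SE 0.19, edgeR unadjusted p = 0.0353, adjusted p = 0.983). *Figla* thus missed the size required for a call. Its partner *Tcf3*, which many cell types express, had 146 ± 6.62 CPM (SD, n = 4) under the WT label and 142 ± 6.65 under the GOAT KO label (log2 fold change -0.04). The homeobox gene *Nobox* had a log2 fold change of 0.04, *Lhx8* 0.11, *Sohlh2* 0.35 and *Taf4b* -0.17, and none of these passed at an unadjusted p under 0.05. *Sohlh1*, *Tbpl2* and *Figla* were measured at 1.06 to 6.19 CPM, so that their values rest on 19 to 121 counts a library.

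**Figure D3:**
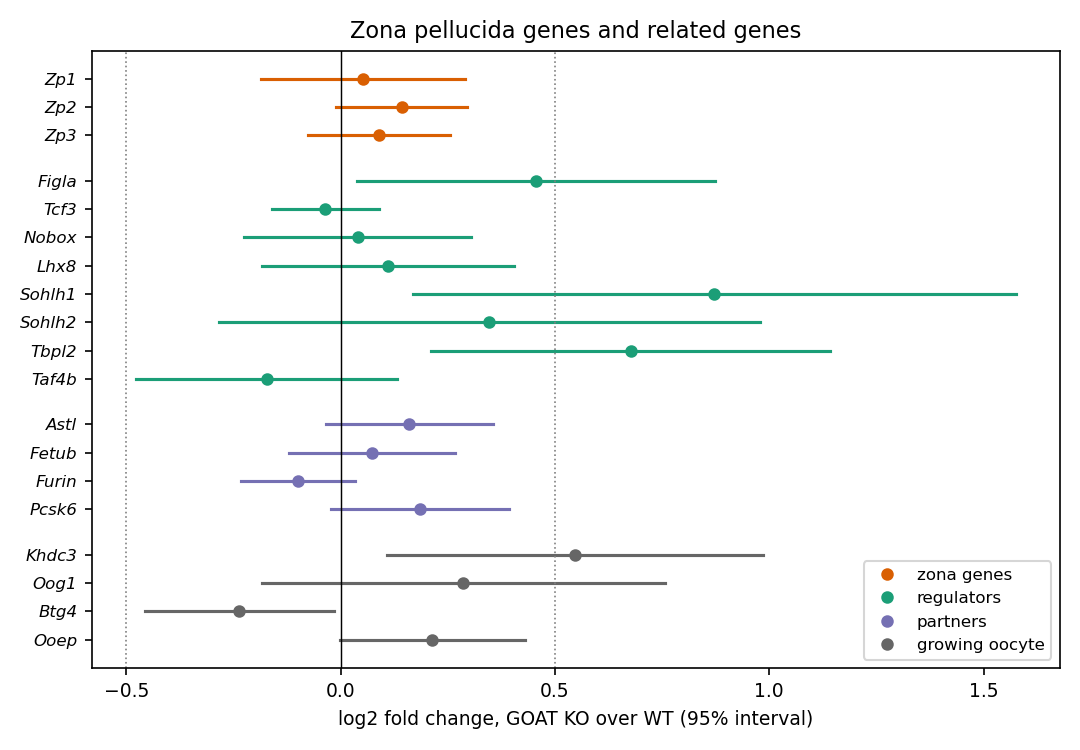
Log2 fold change of GOAT KO over WT with its 95% interval (horizontal axis) for the 3 zona genes, the 8 regulators, the 4 partners and the 4 growing oocyte genes with the largest difference in size; dotted lines mark 0.5 in each direction. The zona genes sit at 0.05, 0.14 and 0.09, left of the dotted line on the higher side, and Sohlh1 (0.87), Tbpl2 (0.68) and Khdc3 (0.55) sit to its right.

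The partners of the zona proteins were *Astl*, *Fetub*, *Furin* and *Pcsk6*. *Astl* encodes ovastacin, the cortical granule protease that cleaves ZP2 after fertilisation, and it had 61.2 ± 5.98 CPM (SD, n = 4) under the WT label and 68.4 ± 6.30 under the GOAT KO label (log2 fold change 0.16, SE 0.09, edgeR unadjusted p = 0.0974, adjusted p = 0.983). *Fetub* encodes fetuin-B, the inhibitor of ovastacin, which reaches the ovary mostly from the liver through the blood, and had 18.02 ± 1.14 and 18.9 ± 1.57 CPM (log2 fold change 0.07). *Furin* and *Pcsk6* encode proprotein convertases, a class of enzymes that frees zona proteins from their membrane anchor. *Furin* had 124 ± 7.93 and 116 ± 4.79 CPM (log2 fold change -0.10) and *Pcsk6* 116 ± 13.2 and 132 ± 13.6 CPM (log2 fold change 0.19, edgeR unadjusted p = 0.0751, adjusted p = 0.983). Thus 0 of 4 partners were called, beside 1.67% of all genes tested, and their median log2 fold change was 0.12, beside -0.00035 over all genes.

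Spliced reads give a second count of the zona transcripts in the same libraries. Per 1000000 junction reads of the library, *Zp1* had 142 ± 16.2 reads across annotated introns (SD, n = 4) under the WT label and 159 ± 12.9 under the GOAT KO label (difference 17.8, exact permutation p = 0.143). *Zp2* had 593 ± 96.9 and 602 ± 29.2 (difference 8.48, exact permutation p = 0.914), and *Zp3* had 378 ± 91.5 and 372 ± 29.0 (difference -6.77, exact permutation p = 0.971). The wide WT spread of *Zp2* and *Zp3* came from WT 1118, with 731 and 510 on this scale against 518 to 589 and 302 to 364 in the other WT libraries. Without WT 1118 the difference was 14.9 for *Zp1* (exact permutation p = 0.257), 54.5 for *Zp2* (exact permutation p = 0.114) and 37.2 for *Zp3* (exact permutation p = 0.171). Counting only introns of the principal transcript with reads in every library, a choice made after seeing the data, the difference was 7.11 for *Zp1* (exact permutation p = 0.343) and 18.1 for *Zp2* (exact permutation p = 0.771). Averaged over the introns read in every library, *Zp3* had 53.6 reads per intron on this scale, *Zp2* 44.6 and *Zp1* 18.2, which is the order found per kb.

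Per 1000 gene counts, WT 1118 gave 424 junction reads for *Zp3*, against 316 to 335 in the other 7 libraries, and 425 for *Zp2*, against 351 to 367. For *Zp1* it gave 171, against 243 to 261. So WT 1118 had more spliced reads than the others for *Zp2* and *Zp3* and fewer for *Zp1* at the same gene count.

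The excess lay in single introns. Intron 5 of *Zp3* had 496 reads in WT 1118 and 203 to 264 in the other 7 libraries, and intron 2 had 393 against 132 to 203. Intron 6 of *Zp3* was low instead, with 49 reads in WT 1118 against 130 to 168. Intron 14 of *Zp2* had 500 reads in WT 1118 against 190 to 240. The coverage of *Zp3* exons in the assembled transcripts, relative to the mean exon of each library, also stood apart in WT 1118. It was 1.35 in exon 5 against 0.948 to 0.993 in the others, and 0.258 in exon 1 against 0.428 to 0.699.

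**Figure D4:**
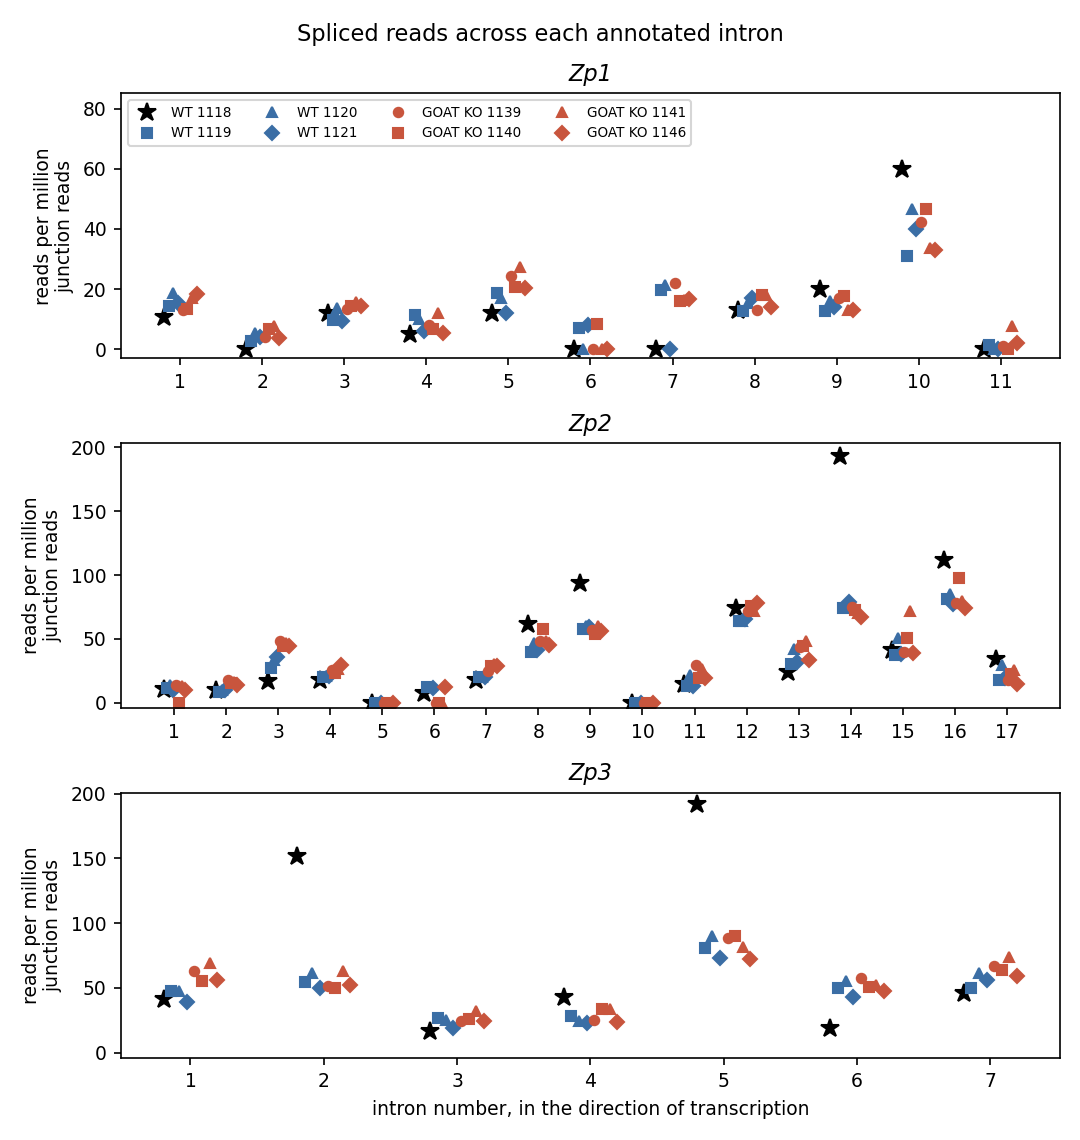
Reads across each annotated intron of the principal transcripts per 1000000 junction reads of the library (vertical axis), by intron number in the direction of transcription; black stars are WT 1118, blue the other WT libraries and red the GOAT KO libraries. The stars leave the other 7 libraries at several introns, among them introns 2 and 5 of Zp3 and intron 14 of Zp2 (393, 496 and 500 reads before scaling). Introns 5 and 10 of Zp2 are at 0 in every library.

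All 7 introns of *Zp3* were read in every library. Of the 17 introns of *Zp2*, 13 were read in every library, 2 in some and 2 in none, and of the 11 introns of *Zp1*, 7 were read in every library and 4 in some. Introns 5 and 10 of *Zp2* were the ones without a read. Intron 6 of *Zp2* had 20, 38, 34 and 36 reads in the WT libraries and 0, 0, 0 and 36 in the GOAT KO libraries. Introns 5 and 6 flank exon 6, which measures 45 bases and is thus shorter than a read of 50 bases. In GOAT KO 1139, 1140 and 1141, where intron 6 had no reads, no assembled transcript reached exon 6, and in the other 5 libraries one did. The join of exons 6 and 7 is shown because it is the one that was read in 5 of 8 libraries, with exon 7 in capitals.

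Zp2 exons 6 and 7: gctgatgaaaaccagAATGTATCTGAGATG

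These 30 bases come from chr7:120141227-120141241 and chr7:120139835-120139849 of GRCm38, on the minus strand and within the coding sequence. Of 57194 annotated introns with at least 20 reads in 1 library, 19.7% had 0 reads in another. That share includes introns with few reads in most libraries. It therefore does not say how common a gap like that of *Zp2* intron 6 was, at 0 or at 20 to 38 reads. GOAT KO 1141, with no read across intron 6, had the highest *Zp2* gene count of all, 5877. In *Zp1*, intron 7 was at 0 in WT 1118 and WT 1121 and at 43 to 60 reads elsewhere, all GOAT KO libraries included. Intron 6 of *Zp1* had 21 to 25 reads in WT 1119, WT 1121 and GOAT KO 1140 and 0 in the other 5 libraries. Intron 2 of *Zp1* was at 0 in WT 1118 and at 8 to 25 reads in the others. Single introns were chosen after their values were seen, and whether their gaps go with genotype was not tested.

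*Zp2* has an alternative last exon in the annotation, used by the transcript numbered 205, which replaces the 155 coding bases of the usual last exon by 44 and so gives the protein another C-terminal end. Both joins follow exon 17, and the letters after the join are in capitals.

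Zp2 usual last exon: tctcttcatccaaagGTGTTGACCCCAGCA
Zp2 alternative last exon: tctcttcatccaaagATGCTAACGAAGTGT

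The intron to the alternative exon, chr7:120126992-120133337, had 11 reads in all libraries together, beside 516 for the usual intron, chr7:120132547-120133337, or 2.09% of their sum (95% exact binomial interval 1.05 to 3.70%). GOAT KO 1140 had 6 reads to the alternative exon and 60 to the usual, GOAT KO 1141 had 4 and 83, and WT 1120 had 1 and 84. The other 5 libraries had none among 41 to 88 reads, with exact binomial upper limits (95% interval) from 4.11% in WT 1118 to 8.60% in GOAT KO 1146. Intervals and limits cover counting error only. The group shares were 0.351% under the WT label (1 of 285, 95% exact binomial interval 0.00888 to 1.94%) and 4.13% under the GOAT KO label (10 of 242, 1.999 to 7.47%), where all 10 reads came from 2 of the 4 libraries. The difference between genotypes in the use of this exon was not tested over libraries.

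*Zp3* had 1 unannotated junction with more than 1 read. It ran from the end of exon 6 to a position 79 bases inside exon 7, a length that is not a multiple of 3. The join to the annotated start of exon 7 and the internal join are shown, with exon 7 in capitals.

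Zp3 annotated join: caagacttcccagagTTGGTTGCCAGTAGA
Zp3 internal join: caagacttcccagagTTCCAGATCCATGGA

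The internal join had 4 reads in WT 1118, 1 in GOAT KO 1139, 2 in GOAT KO 1140 and 2 in GOAT KO 1146, and none in the other 4 libraries. It made up 0.826% of the reads at this position under the WT label (4 of 484) and 0.836% under the GOAT KO label (5 of 598), with 95% exact binomial intervals of 0.226 to 2.10% and 0.272 to 1.94%. All WT reads of this join came from WT 1118, and the other 3 WT libraries had 0 of 431, which has an exact binomial upper limit of 0.852%. Over the 3 genes, reads on unannotated junctions were 0.0873% of the junction reads inside *Zp1*, 0.0147% inside *Zp2* and 0.117% inside *Zp3*. In all 8 libraries *Zp3* was assembled as its full reference transcript. The assembled transcripts that overlapped *Zp1* and *Zp2* numbered 1 to 3 and 3 to 5 per library. The authors' FPKM of the *Zp3* transcript was 99.3 ± 8.001 (SD, n = 4) under the WT label and 106 ± 8.90 under the GOAT KO label, with overlapping ranges.

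Of 11 genes that encode a ZP domain in other tissues, 7 passed the filter and 1, *Oit3*, was called, beside 1.67% of all genes tested, at 6.14 ± 2.30 CPM (SD, n = 4) under the WT label and 3.85 ± 0.75 under the GOAT KO label (log2 fold change -0.67, edgeR unadjusted p = 0.0399, adjusted p = 0.983). The call of *Oit3* was lost with limma-voom and when WT 1118, WT 1119, WT 1121, GOAT KO 1139, GOAT KO 1141 or GOAT KO 1146 was left out, at log2 fold changes of -0.56 to -0.72. It was kept with RLE scaling, without a filter, with DESeq2, without WT 1120 or GOAT KO 1140 and, at -0.81 (edgeR unadjusted p = 0.000159), without WT 1120 and GOAT KO 1139. Of 7 sperm-side or zona-named genes, 6 were in the table, 3 passed the filter and 0 were called.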

How the data were processed

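Total RNA of whole ovaries was sequenced as 50-base single reads. Per the labels and the study's methods, the authors aligned the reads to mm10 (GRCm38) with TopHat2 2.0.14, counted reads per known gene and assembled transcripts with StringTie 1.0.4. The counting tool and the use of strand are not given in the sources used here. The deposited counts per gene are whole numbers without normalization, and the deposited junction files hold counts of reads across each junction. The assembled transcripts carry coverage and FPKM, computed by the authors. The authors' table of mapping percentages was not used.

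The gene counts were fitted in edgeR 4.0.16 (R 4.3.3) with TMM scaling, filterByExpr (minimum count 10, minimum total 15) and the quasi-likelihood test over all 8 libraries, checked on simulated data, with Benjamini-Hochberg adjustment over 16601 genes. The study left out 1 library of each group without naming them in its text, so all 8 were kept. A call needed an unadjusted p below 0.05 and a log2 fold change beyond 0.5 in either direction, as in the study. CPM are TMM-scaled. Single values were compared by two-sided exact permutation over libraries. Alternatives were RLE scaling, no filter, DESeq2 1.42.0, limma-voom (limma 3.58.1), raw totals, other junction counts, and leaving out libraries. Introns were numbered along the principal transcript of GENCODE M21, a later release than the authors used. Named genes were the zona genes, all regulators and partners, the called growing oocyte genes and the 4 of largest difference (which include the called one), *Mboat4*, and the 5 genes most like each zona gene. *Oit3* and the adipose markers were named after their values were seen, and *Bmp15* only as an example of its list. The zona genes and all lists were chosen with earlier results of these data known. Libraries of a group are separate animals, and whether they were littermates of each other is not stated.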

Additional observations from a re-analysis of the deposited data

Results flagged for a closer look

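In 50 groups of 4 libraries examined for a value far from the other 3, 4 values stood out, and chance alone marks about 1 in 20. GOAT KO 1140 had a *Zp1* to *Zp2* count ratio of 0.399, against 0.368 to 0.373 in the other GOAT KO libraries. WT 1118 had 14.4 CPM of *Lhx8*, a regulator of oocyte transcription, against 9.76 to 10.5 CPM in the other WT libraries. GOAT KO 1139 had 152 CPM of *Tcf3*, against 138 to 139 CPM in the other GOAT KO libraries. GOAT KO 1141 had 1.64 CPM of *Sohlh2*, against 0.778 to 0.917 CPM in the other GOAT KO libraries.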

How the results depend on the processing

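No paired analysis was possible because the libraries of the 2 groups share no replicate numbers. The log2 fold changes of *Zp1*, *Zp2* and *Zp3* kept their direction under RLE scaling, no filter, DESeq2, limma-voom and the 6 libraries without WT 1120 and GOAT KO 1139, and none passed an unadjusted p of 0.05 there. Leaving out 1 library at a time, they ran from -0.014 to 0.17, from 0.10 to 0.19 and from 0.05 to 0.14 (edgeR), and the exact permutation differences in log2 CPM from -0.00089 to 0.17, 0.10 to 0.19 and 0.05 to 0.14. Over the same fits the log2 ratios ran from -0.064 to 0.031 for *Zp1* to *Zp3*, -0.13 to -0.02 for *Zp1* to *Zp2* and 0.04 to 0.08 for *Zp2* to *Zp3*. Relative to the growing oocyte list they ran from -0.052 to 0.072 for *Zp1*, 0.05 to 0.09 for *Zp2* and -0.0027 to 0.041 for *Zp3*. The junction read differences, per 1000000 junction reads, ran from 13.02 to 25.3, -16.6 to 54.5 and -32.2 to 37.2. Counted by reads across annotated introns, *Zp1* to *Zp3* turned to 0.17 and *Zp1* to *Zp2* to 0.14. With WT 1118 left out, an alternative chosen after seeing the data, the same reads gave -0.0071 for *Zp1* to *Zp3*, 0.0080 for *Zp1* to *Zp2* and -0.015 for *Zp2* to *Zp3*. *Zp3* against the oocyte list turned to -0.011 without WT 1120 and GOAT KO 1139 and to -0.00056 with the sum of CPM of the list. The cause of these turns was not tested.

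Over all genes, 278 were called and 4 passed at an adjusted p under 0.05. Without a filter these were 691 and 7, DESeq2 gave 13 adjusted calls, and the fit without WT 1120 and GOAT KO 1139 gave 20. Leaving out single libraries gave 231 to 437 calls, the highest without WT 1120, and 3 to 14 adjusted calls, the highest without GOAT KO 1139. The regulators called were 1 to 3 of 8 over these fits, 1 of 8 without WT 1118 or GOAT KO 1141. The zona partners had 0 calls throughout, and the growing oocyte list 0 or 1. With 4 libraries a group the permutation tests cannot go below 0.0286, with 3 against 4 not below 0.0571 and with 3 against 3 not below 0.100.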
